A study of Homo sapiens with 4 samples.

Results

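Cytosolic ribosomal protein genes were read on 4 single arrays. They were chosen by name alone, as every probe whose platform symbol is RPL or RPS with digits and an optional A, X or L suffix, or RPLP0, RPLP1, RPLP2 or RPSA. S6 kinases and pseudogenes were left out. The rule found 119 probes for 72 genes, out of 30110 probes with a single gene symbol for 20043 genes and 47322 probes in all. Of the genes, 46 code for proteins of the large ribosomal subunit (RPL) and 26 for proteins of the small subunit (RPS). No probe carried the symbols RPLP0, RPSA, RPL15 or RPS27A in the annotation used, so these were not analysed here.

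The study asked what vesicles shed by breast cancer cells do to non-tumorigenic breast cells. The first RNA came from MCF10A, an immortalised, non-tumorigenic breast epithelial line, given MDA-MB-231 exosomes loaded with an antibody to the microRNA-processing enzyme Dicer (the Dicer antibody array). The next came from MCF10A given MDA-MB-231 exosomes without the antibody (the exosome array). The third came from MDA-MB-231, a breast cancer line, with no treatment (the MDA-MB-231 array), and the last from MCF10A with no treatment (the untreated array). The medium held serum cleared of exosomes. Each group is 1 array of 1 line without replicates, so no difference between groups could be tested, and every value below describes these 4 arrays only. The labels state neither the dose nor the time of exosome treatment.

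Ribosomal proteins, with ribosomal RNA, make up the particle that translates messenger RNA into protein. Their genes are active in nearly every cell, their messenger RNAs are among the most abundant, and most begin with a C followed by a run of C and T (written U in RNA). This start, called a 5′ terminal oligopyrimidine tract, lets the growth kinase mTOR and the RNA-binding protein LARP1 adjust their translation together. Most of these genes also have processed pseudogenes, near-identical copies elsewhere in the genome, and a probe cannot tell RNA of a gene from RNA of such a copy where both match it.

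The start region is shown for 11 members, chosen after their values were seen because the results below turn on them. Each sequence covers 30 bases before and 20 bases from the annotated start of the gene on its own strand, from RefSeq promoters of build GRCh38.p14, and capitals mark the unbroken run of C and T that begins at the start. The first 4 genes were bright on all 4 arrays.
RPS12, chr6:132814539-132814588, plus strand: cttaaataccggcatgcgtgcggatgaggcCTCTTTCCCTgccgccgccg
RPL12, chr9:127451387-127451436, minus strand: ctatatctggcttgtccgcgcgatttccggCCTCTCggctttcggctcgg
RPS27, chr1:153990732-153990781, plus strand: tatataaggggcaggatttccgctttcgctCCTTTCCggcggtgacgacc
RPL27, chr17:42998389-42998438, plus strand: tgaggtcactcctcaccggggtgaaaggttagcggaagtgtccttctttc
The next 4 were bright on the Dicer antibody and untreated arrays and not detected on the exosome and MDA-MB-231 arrays.
RPL41, chr12:56116603-56116652, plus strand: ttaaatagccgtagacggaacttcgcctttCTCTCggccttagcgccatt
RPS19, chr19:41860225-41860274, plus strand: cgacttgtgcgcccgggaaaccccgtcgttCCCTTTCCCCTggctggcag
RPL19, chr17:39200253-39200302, plus strand: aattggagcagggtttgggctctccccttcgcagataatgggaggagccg
RPL38, chr17:74203648-74203697, plus strand: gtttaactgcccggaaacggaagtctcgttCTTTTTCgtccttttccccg
The last 3 differed by at least 2-fold between the Dicer antibody and untreated arrays.
RPL21, chr13:27251528-27251577, plus strand: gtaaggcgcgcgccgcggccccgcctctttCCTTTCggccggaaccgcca
RPL28, chr19:55385902-55385951, plus strand: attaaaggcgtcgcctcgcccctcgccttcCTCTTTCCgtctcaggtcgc
RPS27L, chr15:63157458-63157507, minus strand: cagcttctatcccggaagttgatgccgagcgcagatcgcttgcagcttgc

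A promoter entry was found for 60 of the 72 genes. Several starts were listed for 8 members, and only the first listed was read for each gene. A C at the annotated start followed by at least 4 C or T, read on the gene's own strand, stood in 40 of these 60 (66.7%), against 1104 of all 27305 promoters (4.04%). It was found in 11 of 20 members detected on both the exosome and MDA-MB-231 arrays, and in 27 of 38 members detected on neither. RPL27, RPL19 and RPS27L lack it at the start given in RefSeq. It stood in 5 of 68 promoters of mitochondrial ribosomal proteins (7.35%) and in 12 of 32 of cytosolic translation factors (37.5%). Within 5 bases of the start on either side, such a run began in 48 of the 60 members (80.0%), against 21.1% of all promoters. The ETS-type motif CCGGAAG, on either strand of the 300 bases, was found in 21 of the 60 (35.0%), against 10.7% of all promoters, 41.2% of those of mitochondrial ribosomal proteins and 35.0% of those of ribosome assembly factors. AAGATGG, the core bound by YY1 (either strand), was found in 8 (13.3%), against 6.06% of all promoters, 33.8% for mitochondrial ribosomal proteins and 8 of 40 for assembly factors. These matches describe the sequences only.

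The arrays formed pairs by how much they detected. Detection rests on the rank of a probe among the negative controls of its own array, and a p below 0.01 counts as detected here. Over all genes, each read by its brightest probe, 55.3% were detected on the Dicer antibody array, 7.83% on the exosome array, 7.91% on the MDA-MB-231 array, with 55.4% on the untreated array. Of 14 epithelial markers, 8, 0, 0 and 5 were detected in the same order, or 57.1%, 0.0%, 0.0% and 35.7%. KRT5, KRT14 and CDH1 were detected on none of the 4 arrays. On the Dicer antibody array LAMB3, KRT7, KRT8 and SFN were the brightest of the 8, at 3186, 1277, 371.2 and 298.6 units. The 5 on the untreated array were DSP, KRT7, LAMB3, KRT19 and ITGA6, at 715.8, 152.2, 145.1, 123.8 and 83.8 units. DSP and KRT19 read lower on the Dicer antibody array, at 222.3 and 58.5 units, the latter not detected. Of 9 epithelial markers compared between these arrays, 7 were higher on the Dicer antibody array and these 2 lower. So few genes of any kind were detected on the exosome and MDA-MB-231 arrays that 0 there says little. Of 10 fibroblast markers, 4, 0, 0 and 10 were detected, with a median signal of 61.6 units on the Dicer antibody array and 6362 units on the untreated array. By these fibroblast markers the array labelled untreated MCF10A went against its label, and every value against it is for the RNA under that label. The Dicer antibody array, also labelled MCF10A, detected COL1A1 (1234 units), PDGFRA (643.1), PDGFRB (172.7) and COL3A1 (162.4). How far that array fits its own label was not tested. Fewer cells of a type and less RNA per cell cannot be told apart in such bulk RNA, and the part of cell type, RNA amount or RNA quality in the results below was not tested.

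Nearly all ribosomal protein genes were detected on the Dicer antibody and untreated arrays, and far fewer on the other arrays. The count was 70 of 72 genes on the Dicer antibody array, 26 on the exosome array, 24 on the MDA-MB-231 array, with 69 on the untreated array. These are 97.2%, 36.1%, 33.3% and 95.8% of the members, each above the share of all genes on the same array given before. By probe, 113, 31, 30 and 112 of 119 were detected, against 50.4%, 5.61%, 5.74% and 50.6% of probes with a single symbol and 40.7%, 5.34%, 5.44% and 40.5% of all 47322 probes. The median signal of the 119 probes was 7772 units on the Dicer antibody array, 57.2 on the exosome array, 56.8 on the MDA-MB-231 array, with 6775 on the untreated array. On the exosome and MDA-MB-231 arrays the typical member thus read at the level of background, whereas a minority read as high as anywhere. The highest member signals were 19044, 19477, 19398 and 19473 units in the same order of arrays.

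**Figure D1:**
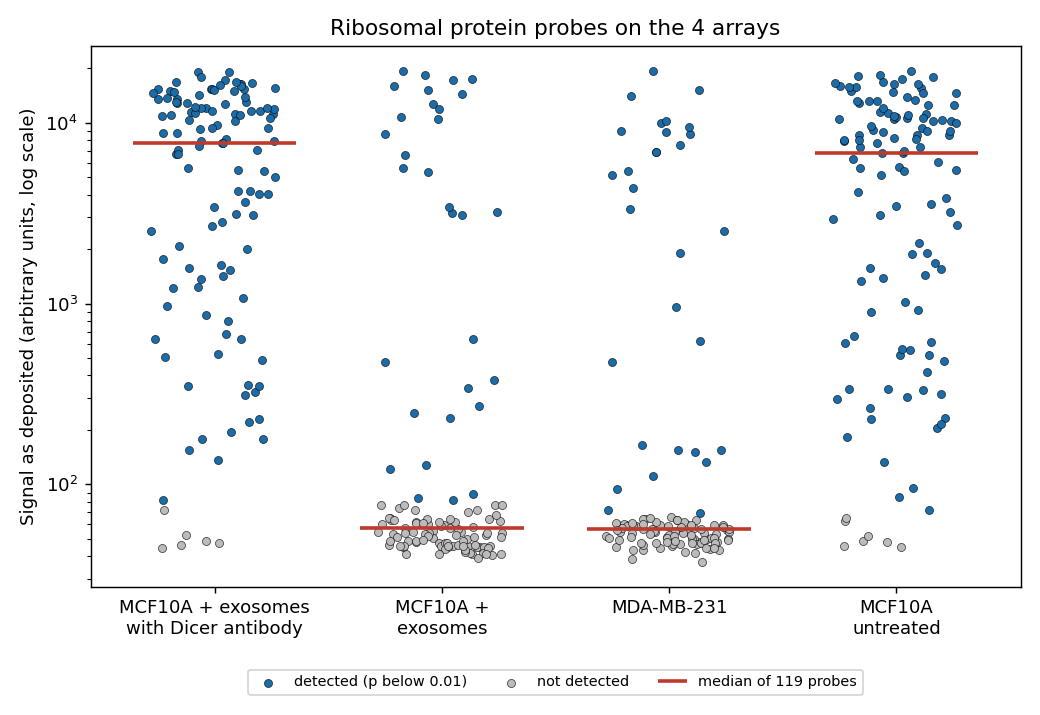
Deposited signal of the 119 ribosomal protein probes on each array (log axis, arbitrary units, 1 array per group), with blue points for detected probes, grey points for the others and a red line at the median. Medians stand at 7772, 57.2, 56.8 and 6775 units from left to right, while the brightest members reach about the same height on all 4 arrays.

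The brightest of all 47322 probes was a ribosomal protein probe on both arrays with few detected probes, for RPS27 on the exosome array (19477 units) and for RPS12 on the MDA-MB-231 array (19398 units). Among the 100 brightest probes of each array, members held 16 places on the Dicer antibody array, 13 on the exosome array, 16 on the MDA-MB-231 array, with 13 on the untreated array, though they make up 0.251% of all probes. Their share of the signal above the array median was 5.68%, 8.89%, 12.5% and 4.43%. Ribosomal protein probes were therefore among the brightest also on arrays where most members were not detected, though often not the same probes. Of the 13 on the exosome array and the 16 on the MDA-MB-231 array, 6 each were also among the 13 of the untreated array. A probe's brightness also depends on the probe itself, so no level of RNA is compared between genes here.

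Nearly the same members were detected on both arrays with few detected probes, and most other genes detected on 1 of them were also shared. In all, 24 genes were detected on both the exosome and MDA-MB-231 arrays, 2 (RPL24 and RPS24) on the exosome array alone, none on the MDA-MB-231 array alone and 46 on neither. Over all genes detected on both the Dicer antibody and untreated arrays, 10.8% were also detected on both other arrays. For the ribosomal protein genes this was 24 of 69, or 34.8%. The large subunit gave 13 of 46 genes and the small subunit 11 of 26. By probe, 29 of the 119 were detected on both arrays, 2 on the exosome array alone and 1 on the MDA-MB-231 array alone.

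Among large-subunit members, RPL11, which joins RPL5 and a ribosomal RNA in a particle that can also bind the p53 regulator MDM2, read 12005 units on the Dicer antibody array, 12667 on the exosome array, 9980 on the MDA-MB-231 array, with 11293 on the untreated array. Its partner RPL5 read 6749, 44.9, 51.0 and 4140 units in that order and was not detected on the exosome and MDA-MB-231 arrays. RPL11 thus stayed detected on all 4 arrays and RPL5 on the Dicer antibody and untreated arrays alone. RPL12, a protein at the base of the stalk that binds elongation factors, read 15372, 17384, 15103 and 11207 units. Of the stalk proteins themselves, RPLP2 read 16685, 270.3, 132.9 and 17954 units. RPLP1 read 15513, 76.7, 56.7 and 14717 units and was not detected on the exosome and MDA-MB-231 arrays. RPL12 was thus above its untreated signal on the other 3 arrays, while RPLP2 was 1.51% and 0.740% of it on the exosome and MDA-MB-231 arrays.

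RPL27 read 17182, 17254, 7509 and 13890 units on the Dicer antibody, exosome, MDA-MB-231 and untreated arrays. RPL27A read 15421, 10555, 10205 and 14808 units, and RPL30 read 11166, 14429, 8678 and 8562 units. These 3 large-subunit genes stayed bright on every array. RPL6 read 14735, 10802, 5404 and 15867 units, and RPL35A read 10180, 3098, 9528 and 8108 units. RPL31 read 10586, 3209, 2509 and 10210 units, and RPL10A 12742, 3181, 1911 and 10617 units. RPL35A was the member with the lower signal on the exosome array than on the MDA-MB-231 array by the widest margin. RPL3, which lies near the catalytic centre, read 14322, 128.6, 110.6 and 11487 units, RPL17 12876, 248.0, 165.1 and 13178 units, and RPL7 1421, 233.5, 155.5 and 1019 units. For RPL3 and RPL17 detection on the exosome and MDA-MB-231 arrays therefore meant a signal of at most 1.88% of the untreated one.

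Among small-subunit members, RPS12 read 19044, 18349, 19398 and 18391 units, and was almost level over the 4 arrays, near the top of the signal range. RPS27 read 16771, 19477, 14072 and 18235 units, and RPS29, like RPS27 a small zinc-binding protein, read 18035, 15269, 6902 and 16828 units. RPS10 read 15325, 8711, 5174 and 16060 units. RPS14, whose loss causes the anaemia of the chromosome 5q deletion syndrome, read 13054, 5644, 3319 and 13216 units. RPS4X, the X-linked form of RPS4, read 12121, 5363, 6882 and 8869 units. All 6 were bright on every array, and each had its lowest signal on the exosome or MDA-MB-231 array, by a small margin for RPS12.

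The other small-subunit members detected on the exosome and MDA-MB-231 arrays were dimmer there. RPS26, which reads the sequence upstream of the start codon, read 2820, 3438, 955.4 and 6775 units, and RPS3, a protein of the messenger RNA entry channel, 13944, 633.4, 623.6 and 8995 units. RPS20 read 13587, 477.7, 474.6 and 10455 units. RPS3 and RPS20 thus had almost equal signals on the exosome and MDA-MB-231 arrays. RPS3A read 12014, 379.5, 154.3 and 8545 units, and RPS2 15955, 341.2, 151.4 and 10612 units. RPL24 and RPS24, detected on the exosome array alone of these arrays, read only 83.5 and 82.2 units there, against 64.4 and 58.2 units on the MDA-MB-231 array.

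Over the 31 probes detected on the exosome array, the signal was between 0.741% and 168.5% of that on the untreated array, with a median of 42.7%. Over the 30 detected on the MDA-MB-231 array it was between 0.437% and 134.8%, with a median of 28.7%. On the exosome array 7 of these probes were brighter than on the untreated array and 10 were under 10% of it. On the MDA-MB-231 array the counts were 4 and 9. These ratios are of signals as deposited, with background and without scaling between arrays. They cover only probes that passed detection on the exosome or MDA-MB-231 array, which leaves out the dimmest there. The same ratios were not computed over all detected probes, so the members are not compared with other genes here.

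The 46 members detected on neither array included some of the brightest on the others. RPL41, the smallest ribosomal protein, read 19043 units on the Dicer antibody array, 52.2 on the exosome array, 62.1 on the MDA-MB-231 array, with 19473 on the untreated array. RPS19, the gene most often mutated in Diamond-Blackfan anaemia, read 16148, 44.7, 55.2 and 17393 units. RPS25 read 16852, 45.7, 59.2 and 16450 units. RPL19 read 16326, 45.2, 49.6 and 15590 units, and RPL38, known for a role in translating Hox messenger RNAs in mice, read 15017, 51.0, 60.1 and 14993 units. All 5 sat among not detected probes on the exosome and MDA-MB-231 arrays, whose array medians were 52.7 and 51.8 units. RPS6, the ribosomal protein phosphorylated by S6 kinases, read 12173, 49.0, 52.9 and 13224 units. RPL13A, which also acts in an interferon-gamma translation checkpoint, read 9734, 59.5, 65.8 and 5729 units, and RPS28 read 4199, 72.0, 48.9 and 3572 units.

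Detection on both low arrays went with a brighter untreated signal, but the ranges overlapped widely. The 24 genes detected on both had a median of 11250 units on the untreated array, in a range of 1019 to 18391. The 46 detected on neither had a median of 5536, in a range of 48.7 to 19473. The 24 genes also had more pseudogenes in RefSeq, with a median of 31.0 against 12.5 for the 46. Over the 72 members this number ran from 0 for RPL10L, RPL39L, RPL3L and RPS27L to 137 for RPL21, which was not detected on either array. These are descriptions of a split seen in these data, and their part in it was not tested.

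Probes of the same gene went apart on the exosome and MDA-MB-231 arrays. Of 35 genes with several probes, 31 had every probe detected on the Dicer antibody array and 31 on the untreated array. On the exosome array 3 had every probe detected, 11 some but not all and 21 none. On the MDA-MB-231 array these counts were 3, 10 and 22, and RPL3, RPL11 and RPS14 were the 3 genes with every probe detected on both. Detection of a member there was thus mostly that of 1 of its probes. These counts were not made over all genes with several probes, so how usual such a split is on these arrays is not known. RPL32, counted as not detected there by its brightest probe, was detected by another at 88.0 units on the exosome array and 69.7 units on the MDA-MB-231 array.

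RPL12 gives an example. Its brighter probe read 17384 and 15103 units on the exosome and MDA-MB-231 arrays, and its other probe read 74.1 and 59.7 units there. That other probe was bright elsewhere, at 11094 units on the Dicer antibody array and 6307 units on the untreated array. In RPS27 the probes read 19477, 16019 and 58.5 units on the exosome array and 14072, 9005 and 52.1 on the MDA-MB-231 one. The dim RPS27 probe read 3435 units on the Dicer antibody array and 3455 on the untreated array. RPL6, RPL10A, RPS29 and RPS4X showed the same, with probe ratios of 114.5, 38.5, 147.2 and 105.9 on the MDA-MB-231 array. Over the 11 such genes on the exosome array, the 18 probes not detected there read between 41.2 and 76.7 units, yet all 18 were detected on both the Dicer antibody and untreated arrays. Over the 10 such genes on the MDA-MB-231 array, all 16 probes not detected were likewise detected on both.

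**Figure D2:**
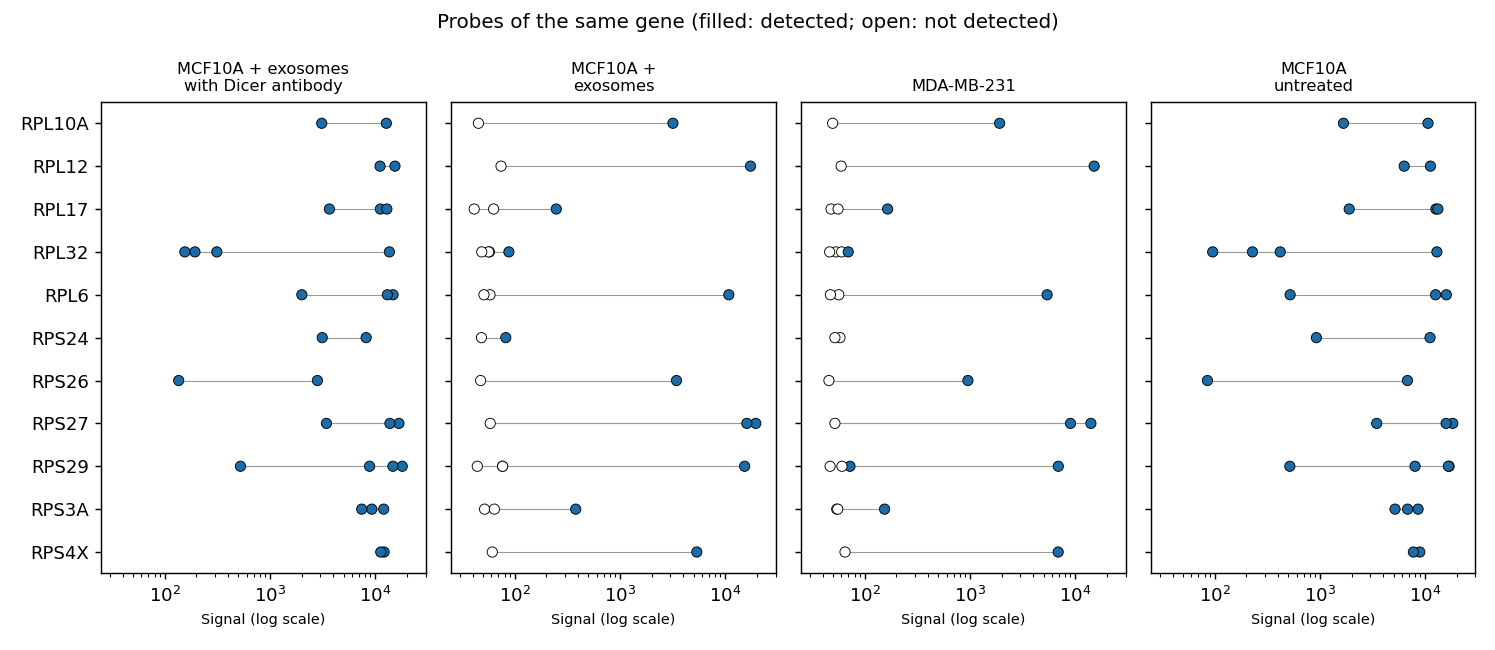
Deposited signal (log axis, arbitrary units) of each probe of the 11 genes with some but not all probes detected on the exosome array, on the 4 arrays, with filled points for detected probes and open points for the others. For RPL12 the probes read 17384 and 74.1 units on the exosome array, against 11207 and 6307 units on the untreated array.

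Probes of a gene also differed in brightness on the arrays with many detected probes. On the Dicer antibody array the widest ratio of brightest to dimmest probe was 107-fold for RPL41 (19043 and 177.9 units), then 87.7-fold for RPL32, 56.4-fold for RPS27L (whose dimmer probe, at 47.3 units, was not detected), 37.0-fold for RPL8, 34.6-fold for RPL37A and 34.4-fold for RPS29. RPS26, RPLP1, RPL36 and RPS15 followed at 20.8, 19.3, 16.9 and 11.9-fold. RPL32 had 4 probes, whose signals on the untreated array ran from 95.7 to 12892 units. A gene's value below is that of the probe with the highest mean over the 4 arrays.

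Between the exosome array and the MDA-MB-231 array the detected members kept nearly the same order. Across the 29 probes detected on both, Pearson's r of the log signals was 0.973 and Spearman's rho 0.908. The points are probes of 1 pair of arrays, several share a gene, and no p is given. The signal was higher on the exosome array for 26 of the 29 and lower for 3, with a median ratio of 1.5, in a range of 0.325 to 3.6. Over the 1885 probes of any kind detected on both arrays the median ratio was 1.47, so the members' ratio was about that of all such probes.

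**Figure D3:**
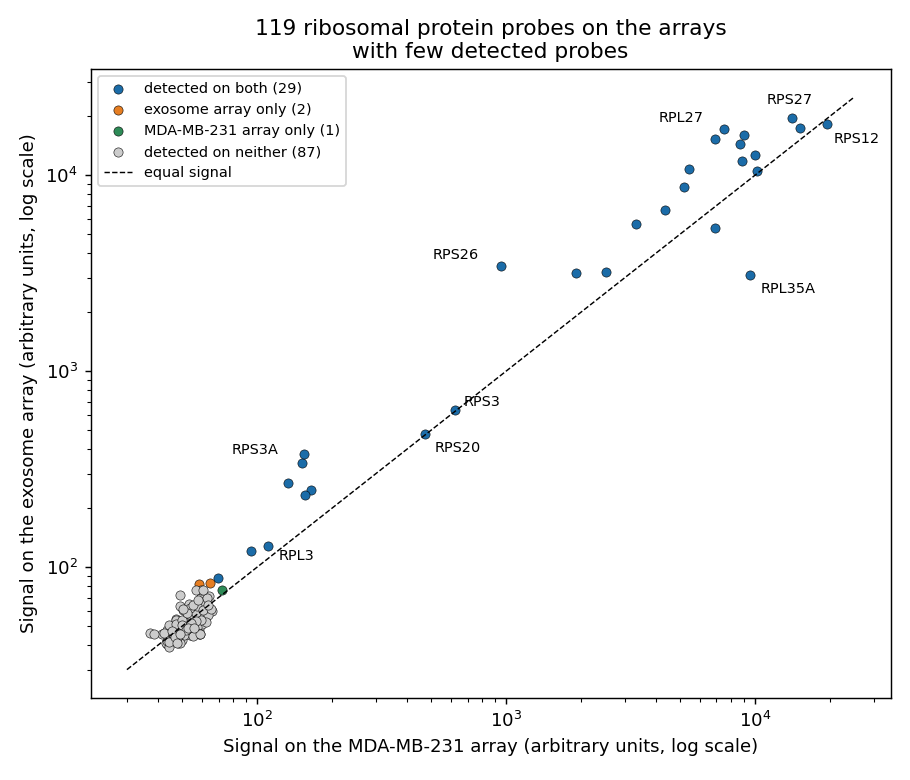
Deposited signal of the 119 ribosomal protein probes on the exosome array (vertical) and the MDA-MB-231 array (horizontal), both on log axes in arbitrary units, coloured by where each was detected. The 29 probes detected on both run along and mostly above the dashed line of equal signal, with RPL35A below it at 3098 against 9528 units.

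After background correction and quantile normalization, 26 members could be compared. On the exosome array none was higher by 2-fold or more and 1 was lower, against 4.36% higher and 3.64% lower of all 1948 genes compared. The lower member was RPL35A, at 2.02-fold (log2 difference -1.02). The median log2 difference of the members was -0.09, against 0.04 over all genes compared. With median scaling it was 0.49 and with no normalization between arrays 0.62, so its direction depends on the scaling. Relative to the median of all genes detected on both arrays the members' median was -0.17 after quantile normalization and -0.20 with median scaling or none.

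The arrays with many detected probes, the Dicer antibody array and the untreated array, were compared next. Ribosomal protein genes read slightly higher as a group and few were far apart. Of 70 members compared, 11 were higher by 2-fold or more on the Dicer antibody array and 4 lower. Over all 12252 genes compared, 14.8% were higher and 16.7% lower, so the members' higher share was near that of all genes. The median log2 difference was 0.44 for the members and -0.01 for all genes compared, and 54 of the 70 lay above 0 and 15 below. The median was 0.48 for 44 large-subunit genes and 0.35 for 26 small-subunit genes. Median scaling and no normalization between arrays put the median of all genes detected on both arrays at -0.22 and -0.145. The members' median stayed 0.38 above that of all genes under either, and 5 members were at least 2-fold higher. The share of all genes past 2-fold under these settings was not computed.

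The members at least 2-fold higher on the Dicer antibody array under every scaling were RPL36A, RPL21, RPS7, RPL14 and RPL29. RPL21 read 5616 units on the Dicer antibody array and 1579 on the untreated array, 4.49-fold higher, but has 137 pseudogenes in RefSeq. RPS7, another Diamond-Blackfan anaemia gene, read 1762 against 606.7 units, 3.51-fold higher, and its other probe read 1642 against 558.5. RPL14 read 867.7 against 338.4 units, 3.02-fold higher, and RPL29 636.8 against 296.1 units, 2.49-fold higher. For RPS7, RPL14 and RPL29 both probes were past 2-fold. RPL36A read 355.6 against 72.0 units, 6.04-fold higher, and its other probe was detected on neither array. The untreated value of RPL36A lies close to background, and the fold ran down to 2.68 under other scalings.

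The other 6 members past 2-fold were so after quantile normalization but not under every scaling. RPS21 read 4203 against 2150 units (2.46-fold), RPL23 5036 against 2718 (2.35-fold) and RPL23A, which lies at the exit of the peptide tunnel, 1575 against 897.2 (2.11-fold). RPL13A was 2.10-fold, RPL5 2.04-fold and RPS2 2.01-fold higher. All 6 were higher under every scaling tried, with smallest folds between 1.43 for RPS2 and 1.87 for RPS21.

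The members at least 2-fold lower were RPS27L, RPL28, RPS23 and RPS26, each under every scaling. RPS27L, a paralog of RPS27 that p53 induces, read 2669 units on the Dicer antibody array and 10886 on the untreated array, 3.88-fold lower, whereas RPS27 read 16771 and 18235 units, a log2 difference of -0.27. RPL28 read 221.6 against 613.2 units, 2.59-fold lower. RPS23, a protein of the decoding centre, read 1230 against 3081 units, 2.12-fold lower. RPS26 read 2820 against 6775 units, 2.05-fold lower, but its dimmer probe read higher, 135.6 against 85.3 units. RPS27L and RPS27 thus lay far apart between the same arrays.

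**Figure D4:**
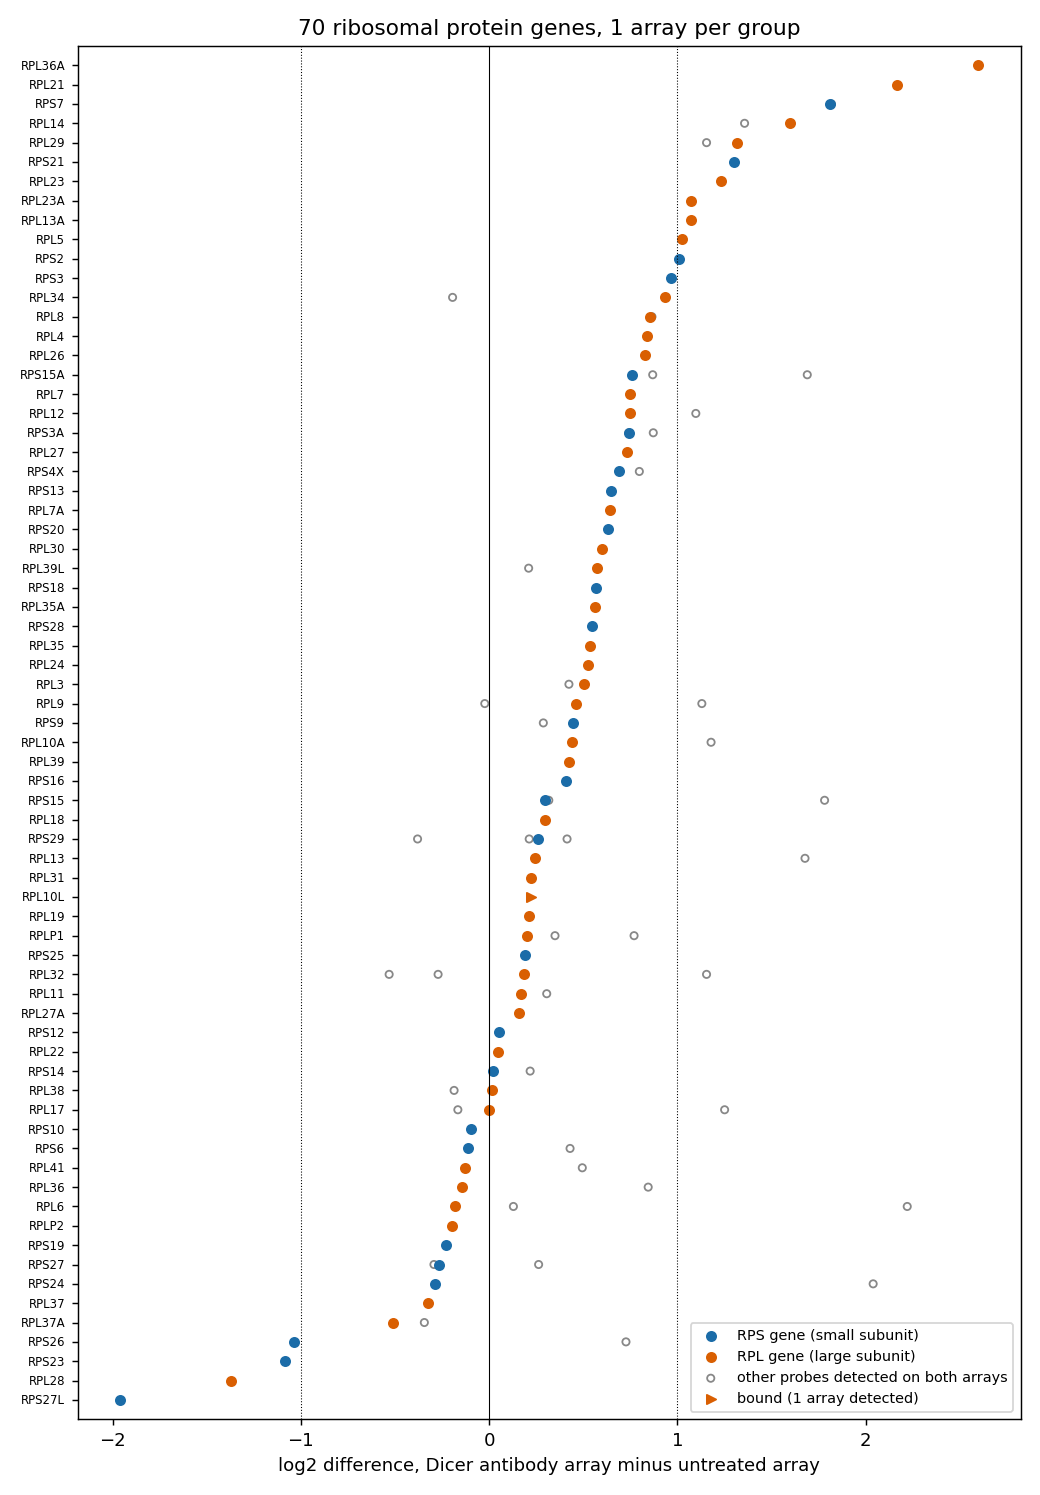
Log2 difference, Dicer antibody array minus untreated array, of the 70 ribosomal protein genes compared, with filled points for each gene's own probe (orange RPL, blue RPS), open circles for its other probes detected on both arrays and dotted lines at 2-fold. Of the filled points 54 lie right of 0, 11 past 2-fold there, and 4 lie past 2-fold on the left, from RPS27L at -1.96 to RPS26 at -1.03.

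The 5 brightest members on each of these arrays were 8 genes in all, and none differed by 2-fold. RPS12 had a log2 difference of 0.05, RPL41 of -0.13, RPS25 of 0.19, RPS29 of 0.26, RPS27 of -0.27, RPLP2 of -0.20, RPS19 of -0.23 and RPL27 of 0.73. On the Dicer antibody array their signals ran from 16148 (RPS19) to 19044 units (RPS12), where the highest of any probe was 21382 units. On the untreated array they ran from 13890 (RPL27) to 19473 units (RPL41), where the highest was 20732 units. Signals this near the highest on an array leave little room for a 2-fold rise, so its absence in these 8 genes says little. Of genes chosen by role, RPL38 was at 0.02, RPL3 at 0.51, RPL24 at 0.53, RPS28 at 0.54, RPS4X at 0.69 and RPS3 at 0.96. RPS14, RPS6 and RPL11 were at 0.02, -0.11 and 0.17. None of these reached 2-fold, whereas RPL5, RPL13A and RPL23A, of the same choice, did.

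Probes of a gene did not always differ the same way. In 13 of 31 genes with at least 2 probes detected on both arrays, the probes gave differences of opposite sign. RPS24, whose transcripts are spliced in several ways, read 8185 against 11096 units by its brighter probe, a log2 difference of -0.29. Its other probe read 3133 against 924.3 units, a difference of 2.04. RPL6 gave -0.18 by its brightest probe and 2.22 by another, at 2005 against 520.2 units. In 10 genes at least 1 probe was 2-fold higher while another was not. Neither count was made over all genes with several probes, so these are not shown to be traits of the members. Across the 112 member probes detected on both arrays, Pearson's r of the log signals was 0.956 and Spearman's rho 0.951.

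The tissue-restricted paralogs read low. RPL3L, the form of RPL3 in heart and skeletal muscle, was not detected on any of the 4 arrays, at 52.6, 54.6, 47.3 and 51.7 units on the Dicer antibody, exosome, MDA-MB-231 and untreated arrays. RPL10L, a testis form, read 81.4, 65.0, 59.2 and 62.5 units and was detected on the Dicer antibody array alone. RPL39L, also a testis form, read 347.9, 71.6, 64.0 and 262.8 units and was detected on the Dicer antibody and untreated arrays. Its counterpart RPL39 read 11043, 49.5, 57.1 and 9352 units. RPL10, a core protein of the large subunit, was detected by neither of its 2 probes on any array, with signals between 44.4 and 58.7 units. The sequences of these probes were not used here.

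Against the untreated array, the exosome and MDA-MB-231 arrays gave differences set largely by detection. On the exosome array 32 of 69 members were lower by 2-fold or more and 7 higher, against 5.37% lower and 12.0% higher of all 11327 genes compared. On the MDA-MB-231 array the counts were again 32 and 7 of 69, against 5.52% and 12.3% of all 11358 genes. Both comparisons use the same untreated array. RPL41 was lower by at least 21.3-fold on the exosome array and at least 21.6-fold on the MDA-MB-231 array, RPS19 at least 15.9-fold and 16.1-fold, and RPS25 at least 13.8-fold and 13.9-fold. These are the smallest folds over the scalings tried. Under every scaling 31 members stayed at least 2-fold lower on the exosome array and 32 on the MDA-MB-231 array. How many of all genes did so under every scaling was not counted.

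The members higher after quantile normalization did not hold. On both arrays RPL7, RPL30, RPL12, RPS4X, RPS26 and RPL11 were among the 7, with RPL27 on the exosome array and RPL35A on the MDA-MB-231 array. None of them was 2-fold higher under median scaling or with no normalization between arrays. RPL7 turned round, from a log2 difference of 2.38 after quantile normalization to one as low as -2.34, for the exosome array minus the untreated array. Above the untreated array under every scaling tried, by less than 2-fold under at least 1, were 5 members on the exosome array and 4 on the MDA-MB-231 array. On the exosome array their smallest folds were 1.69 for RPL30, 1.55 for RPL12, 1.24 for RPL27, 1.12 for RPL11 and 1.07 for RPS27. On the MDA-MB-231 array they were 1.35 for RPL12, 1.18 for RPL35A, 1.05 for RPS12 and 1.01 for RPL30.

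On the Dicer antibody array against the exosome array, 39 of 70 members were higher by 2-fold or more and 4 lower, against 4.86% higher and 12.2% lower of all 11223 genes compared. All 39 were so under every scaling, and none of the 4 lower was, but this was not counted over all genes. This comparison again joins an array with many detected probes to one with few.

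Other genes of translation and ribosome synthesis were read the same way. Cytosolic translation factors, which start, extend and end protein chains, were detected for 40, 17, 16 and 39 of 41 genes on the Dicer antibody, exosome, MDA-MB-231 and untreated arrays. On the exosome and MDA-MB-231 arrays these are 41.5% and 39.0%, near the 36.1% and 33.3% of the ribosomal protein genes. The elongation factor EEF1A1 read 21382, 13116, 17586 and 18921 units, and the initiation factor subunit EIF3I read 6175, 6567, 2560 and 6064 units. TPT1, whose messenger RNA also has a pyrimidine start, read 19657, 390.1, 167.9 and 19762 units. Ribosome assembly factors were detected for 45, 5, 4 and 44 of 46 genes, and mitochondrial ribosomal proteins for 76, 6, 4 and 76 of 76. On the exosome and MDA-MB-231 arrays these lists were thus near the share of all genes, at 10.9% and 8.70% for assembly factors and 7.89% and 5.26% for mitochondrial ribosomal proteins. FAU, which encodes a small-subunit protein fused to a ubiquitin-like one, read 7975, 7758, 2896 and 7109 units.

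**Figure D5:**
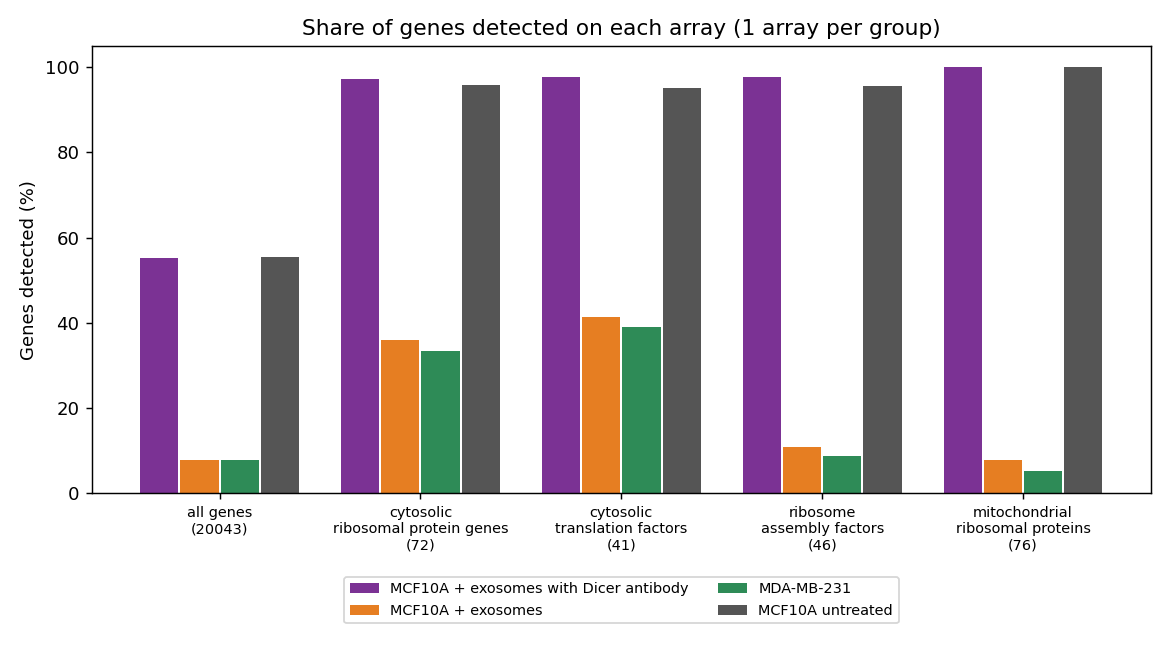
Share of genes detected on each array (bars from 0, 1 array per group) for all genes and 4 lists, with the number of genes under each name. On the exosome and MDA-MB-231 arrays ribosomal protein genes reach 36.1% and 33.3% and translation factors 41.5% and 39.0%, against 7.83% and 7.91% of all genes.

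Between the Dicer antibody and untreated arrays, assembly factors were further apart than the ribosomal protein genes. Over all 12252 genes compared between these arrays, 14.8% were at least 2-fold higher on the Dicer antibody array and 16.7% lower (median log2 difference -0.01). Of 45 assembly factors compared, 24 were at least 2-fold higher on the Dicer antibody array and none lower, with a median log2 difference of 1.06. NOLC1, a nucleolar phosphoprotein, was 6.87-fold higher (674.2 against 115.7 units), the helicase DDX10 5.22-fold and the assembly factor MRTO4 4.80-fold higher. SBDS, IMP3 and UBTF had the lowest differences, at -0.63, -0.43 and -0.13. Of 40 translation factors, 10 were higher and none lower (median 0.43). EEF1A2, an elongation factor form of brain and muscle, read 3116 units on the Dicer antibody array and 54.3 on the untreated array, where it was not detected. EIF3M was 3.12-fold and EIF5A 2.56-fold higher, and EIF4A2, at -0.88, was the lowest of this list.

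The counts below stand against the same 14.8% higher and 16.7% lower of all genes compared. Of 76 mitochondrial ribosomal proteins, 19 were higher and 2 lower (median 0.47). MRPS31, MRPS30 and MRPS26 were 4.46, 4.17 and 3.67-fold higher, and MRPS6 was 5.66-fold and MRPL57 2.27-fold lower. Among S6 kinases and growth control genes, 4 of 14 were higher and 2 lower (median 0.00). MYC, a transcription factor that drives ribosome synthesis, read 9045 against 731.9 units, and the S6 kinase gene RPS6KB1 read 878.1 against 431.8 units. EIF4EBP1 and RPS6KA5 were the other higher genes, at 3.23-fold and 2.98-fold. The 2 lower were also S6 kinase genes. RPS6KA2 read 55.2 units, not detected, against 1451 units on the untreated array, and RPS6KA4 344.7 against 974.1 units. Of 5 ribosomal protein genes with other kinds of symbol, 1 was lower and none higher. This was RPL22L1, the paralog of RPL22, at 53.5 units and not detected on the Dicer antibody array, against 161.3 units on the untreated array. Fibroblast markers differed between the same arrays, with 9 of 10 lower by at least 2-fold on the Dicer antibody array, and their part in the differences above was not tested.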

How the data were processed

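The authors deposited 1 linear intensity per probe and array, background included and not normalized between arrays, with a detection p-value beside each, per the file headers. The deposited value table holds intensity normalized between arrays, except that its column for the exosome array holds detection p-values (within 0.0026 of those in the other table). It was used as an alternative for the other 3 arrays. Per the submitters' processing notes, limma was among the authors' tools, and its version and role are not given in the sources used here.

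For the main values, neqc (limma 3.58.1, R 4.3.3) took background from the detection p-values of all 47322 probes, added 16 units, quantile-normalized and took log2. The step was tested on simulated arrays that shared the same expressed probes, without the unequal detection seen here. That test therefore does not bear on comparisons of arrays with many and few detected probes. Tables and figures used Python 3.11.15, pandas 2.3.3, numpy 2.4.6 and matplotlib 3.10.9. Probes were named from the platform annotation, and all 119 member probes matched a current RefSeq gene by gene identifier. A gene was read by whichever of its probes was brightest on average after normalization. Genes detected on neither array of a comparison were left out of it. For a gene detected on just 1, the other array was set to its lowest detected value, or to the gene's own if higher, which gives a bound (0 where none remained).

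With 1 array per group no difference has a test or an error, which limits the precision. Counts are of genes at least 2-fold apart. By rule, named genes are those detected on the exosome or MDA-MB-231 array, those past 2-fold (the 10 largest a direction), the 5 brightest and dimmest per array, the 10 with the most unequal probes, a list by role, the paralogs, and in other lists the 3 largest a direction and up to 5 detected on those arrays. Some of the genes the rule allows are left out for length. The members and lists were chosen with earlier results of these data known. Alternatives are in the closing section.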

Additional observations from a re-analysis of the deposited data

How the results depend on the processing

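No paired analysis was possible because each group held 1 array. The other settings left 89 values within the limits set for them, moved 38 and reversed 2. Shares of all genes past 2-fold were computed under the main setting only, so the counts of members below have none beside them. Requiring every probe of a gene to be detected left 16 ribosomal protein genes on the exosome array (26 by the brightest probe) and 15 on the MDA-MB-231 array (24).

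For the Dicer antibody against untreated arrays, the median log2 difference (0.441) was 0.438 with an offset of 50 or no background correction, 0.16 with median scaling, 0.237 with no normalization between arrays, 0.499 in the authors' value table, 0.433 with no detection filter, 0.443 over genes detected on both and 0.525 over the mean of a gene's probes. The 11 higher became 5 with median scaling or no normalization, and the 4 lower became 2 over the mean of probes.

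For the exosome against MDA-MB-231 arrays, the median (-0.093) reversed to 0.488 with median scaling and 0.616 with no normalization. It was -0.109 at a detection p below 0.05 or over genes detected on both, -0.163 with no filter and -0.097 over the mean of probes. The count higher (0) became 6, 7, 1 and 6 with median scaling, no normalization, p below 0.05 and no filter, and the count lower (1) became 17 with no filter and 2 over the mean of probes.

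For the exosome against untreated arrays, the 7 higher became 0 with median scaling or no normalization and 4 over the mean of probes, and the 32 lower became 56 with either scaling and 5 over genes detected on both. For the MDA-MB-231 against untreated arrays, the 7 higher became 0 with either scaling, and the 32 lower became 58 with median scaling, 59 with no normalization and 3 over genes detected on both. For the Dicer antibody against exosome arrays, the 39 higher became 9 over genes detected on both, and the 4 lower became 0 with either scaling and 2 over the mean of probes. Restricting to genes detected on both arrays removes bounds and so leaves fewer genes. The cause of the other shifts was not tested. The value table held no signal for the exosome array, so that setting was not run for its comparisons. Signals of probes not detected lie within background, so differences between them cannot be read.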
